A study of Drosophila melanogaster with 47 samples.

Results

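The genes described here encode the subunits of the 26S proteasome of Drosophila melanogaster. They were chosen by name alone: every gene row whose symbol begins with Prosalpha or Prosbeta, or with Rpn or Rpt followed by a digit. The rule gave 35 genes of the 11964 found in any of the 3 count tables, with 33 in the whole gut table, 34 in the progenitor table and 34 in the Actin table. Of these, 32 are the standard subunits, Prosalpha1 to Prosalpha7, Prosbeta1 to Prosbeta7, Rpt1 to Rpt6 and 12 Rpn genes, and 3 are paralogs, Rpt3R, Prosbeta2R2 and Rpn13R.

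The proteasome is the protease that degrades proteins tagged with ubiquitin chains. Its core is a barrel of stacked rings, in which alpha subunits form the outer gates and beta subunits line the chamber where peptide bonds are cut. A regulatory cap sits on the barrel: its base holds the Rpt ATPases, which unfold the substrate and open the gate, and the receptors that bind ubiquitin, while its lid removes the ubiquitin chain before degradation.

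The study asked how mating alters the midgut of adult females and whether ecdysone signalling takes part in it. RNA was sequenced from 8 groups of 4 libraries. Whole midguts and sorted esg+ cells came from esg-Gal4 females, mated for 48 h with males or kept from males since eclosion. Whole midguts also came from Actin-Gal4 females without (control) or with the EcR RNAi construct, both held for 5 days at 29 °C and then mated, or not, for 48 h at 25 °C. Each gut library pooled 15 guts, and 100 to 150 guts went into each sorted one. The esg driver marks the progenitors of the gut, its stem cells with their early daughters, and the Actin driver is active throughout the body, so that the RNAi was not limited to the gut. The age of the esg-Gal4 flies is not given in the labels. No label says that the pools of a group came from separate crosses, so the p-values measure the spread between pools.

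Library totals ran from 13718418 to 44260161 counts, and the proteasome genes together took between 0.255% and 0.525% of them. The sorted cells carried 894 CPM (counts per 1000000 counts of the scaled library) of esg on average when mated and 520 CPM when unmated, against 21.3 and 23.1 in whole guts, and the muscle myosin gene Mhc was at 1.27 to 2.07 CPM against 258 to 374. EcR, the gene targeted by the RNAi, was not lower in the libraries labelled EcR RNAi. It stood at 12.9 CPM in unmated and 9.57 in mated ones against 8.07 and 8.28 in the controls, a log2 difference of 0.67 (SE 0.11, edgeR adjusted p = 0.00125) in unmated guts and 0.21 (adjusted p = 0.34) in mated guts. The genotype name is therefore used only as the label gives it. All 3 tables are bulk RNA, in which fewer cells of a type and less RNA per cell cannot be told apart.

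The standard subunits had transcript levels within a narrow range. CPM divided by exon length, in kb, was taken as the scale on which genes can be compared. Without Prosalpha1, the other 31 lay within 2.62-fold of each other in unmated whole guts, from 51.0 CPM per kb for Rpn9, a lid subunit, to 134 for Rpt6, a base ATPase. In unmated progenitors they lay within 2.38-fold, from 71.2 for Rpn9 to 169 for Prosalpha2, an alpha ring subunit. In unmated Actin controls they lay within 2.42-fold, from 48.7 for Rpn2, the scaffold of the base, to 118 for Prosalpha2. Over all 8 groups the span was 2.11-fold to 2.62-fold and the median 70.6 to 102 CPM per kb. Each table was scaled on its own, so the order of genes within a group can be read, but not the height of one table against another.

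Per length, the median of the core subunits was above that of the cap subunits in these libraries. In unmated whole guts the median was 95 CPM per kb for the alpha ring and 94.4 for the beta ring, against 84.9 for the base ATPases, 68.7 for the other base subunits and 72.2 for the lid. Unmated progenitors gave 127 and 132 for the rings against 101, 79.5 and 80.0. The ranges of the classes overlapped: Rpt6 ranked 1 and Prosalpha6 ranked 26 among the 31 in unmated whole guts. The catalytic subunits ranked high in unmated whole guts, with Prosbeta5, the chymotrypsin-like one, at rank 3 with 114 CPM per kb, Prosbeta2, the trypsin-like one, at rank 5 with 105, and Prosbeta1, the caspase-like one, at rank 6 with 99.0.

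**Figure D1:**
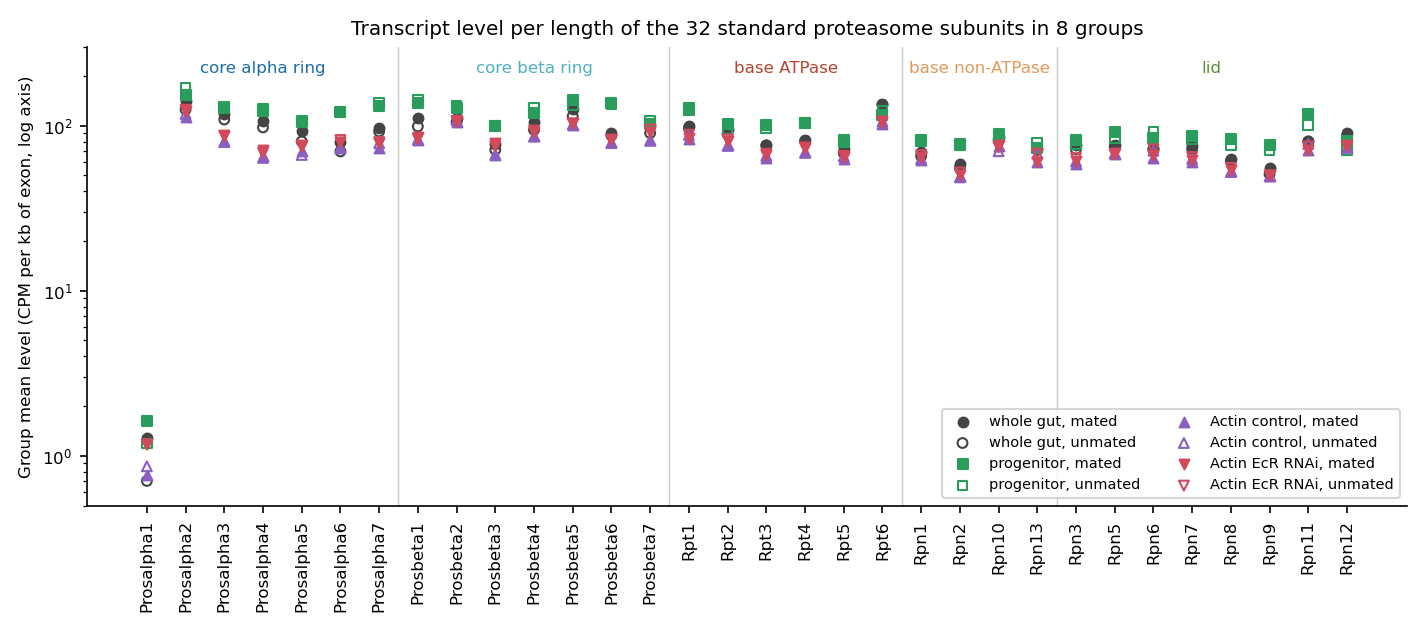
Group mean level per kb of exon on a log axis for the 32 standard subunits in 8 groups, in order of their place in the particle; filled symbols are mated groups and open symbols unmated ones, each the mean of 4 libraries. Within a group 31 subunits lie within 2.11-fold to 2.62-fold of each other and Prosalpha1 lies far below; the 3 tables were scaled separately, so symbols of different tables cannot be compared in height.

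Prosalpha1 was the exception. It stood at 0.705 CPM per kb in unmated whole guts and at 1.64 in mated progenitors, each on the scale of its own table, and within the 8 groups the median of the other 31 was 62.6 to 115 times higher. Its counts per library were 7 to 18 in unmated whole guts and 44 to 82 in mated progenitors. Prosalpha1 lies on chromosome arm 2R at 7827303 to 7828678 on the minus strand (BDGP6.54). The annotation places a copy, Prosalpha1R, named CG30382 in the files, nearby at 7830413 to 7831771 on the same strand, with 952 bases of exon against 969. That gene was also low, with 229, 319 and 422 counts summed over the whole gut, progenitor and Actin tables against 157, 398 and 366 for Prosalpha1. How reads that match both genes were counted is not given in the sources used here, and its part in these levels was not tested. Values of Prosalpha1 are therefore uncertain, and it was set apart from the other 31 after its level had been seen.

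The paralogs were scarcely detected. Rpt3R, the paralog of Rpt3, had group means between 0.270 CPM (unmated Actin controls) and 0.927 CPM (unmated progenitors), from 3 to 47 counts per library. Prosbeta2R2, listed only for progenitors, had 0.160 ± 0.127 CPM in mated and 0.236 ± 0.124 CPM in unmated cells (SD, n = 4). Rpn13R, listed only in the Actin table, had group means of 0.127 to 0.335 CPM and no read in 1 library. Only Rpt3R passed the filter on low counts, and only in the progenitor and joint tables. Among the testis markers examined beside them, the summed level was 14.9 to 28 CPM per library over all 8 groups.

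The members' genes are spread over the genome, with 10 on 2R, 11 on 3R, 5 on 3L, 4 on 2L and 5 on X. None of the 32 standard subunits has an exon that overlaps another gene's exon on its own strand, and 13 overlap one on the other strand. The strand setting of the counting is not given in the sources used here, so reads of these 13 and of their partners (for example Prosbeta5 with Lsm10, Rpt5 with Hrd3 and Rpt6 with CG1801) may not be separated.

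Subunit levels moved together between libraries of the same group. For each gene the deviation of log2 CPM from its group mean was taken, and the 465 pairs among 31 subunits had a median correlation of 0.784 over 8 whole gut libraries, 0.909 over 8 progenitor libraries and 0.805 over 16 Actin libraries. The same median over all genes whose mean log2 CPM reached 5 was 0.0223, 0.0113 and 0.0306. All libraries of a table share their scaling, so these values describe the libraries and carry no test. Over the 16 Actin libraries, the genes outside the group whose log2 CPM followed the mean of the standard subunits most closely, among 4593 genes, were p47, a cofactor of the TER94 unfoldase (r = 0.877), Pomp, the chaperone of core assembly (0.849), Roc1a, a RING subunit of cullin ubiquitin ligases (0.842), Txl, a thioredoxin-like protein (0.820), and Sem1, the small lid subunit that the naming rule does not reach (0.797). Among the members themselves that correlation was 0.948 for Prosalpha2, 0.558 for Rpn13 and 0.457 for Prosalpha1.

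The sum of the 32 subunits shows this shared movement. In mated whole guts it was 3542, 3918, 3812 and 3838 CPM in libraries 1 to 4, and in unmated whole guts 3548, 3961, 3289 and 3455 CPM. The unmated group was the wider one and covered the whole range of the mated group. In progenitors the sum was 4181, 4224, 4634 and 4714 CPM when mated and 3879, 4573, 4594 and 4551 CPM when unmated, so that library 1 of the unmated group lay below all others. In Actin controls it was 3295, 3264, 2994 and 2882 CPM when mated and 2906, 2892, 3337 and 3512 CPM when unmated. Each of these groups held a higher and a lower pair. In the libraries labelled EcR RNAi the sum was 3252, 3254, 3169 and 3290 CPM when mated and 3288, 3405, 3433 and 3068 CPM when unmated, a narrower spread than in the controls.

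**Figure D2:**
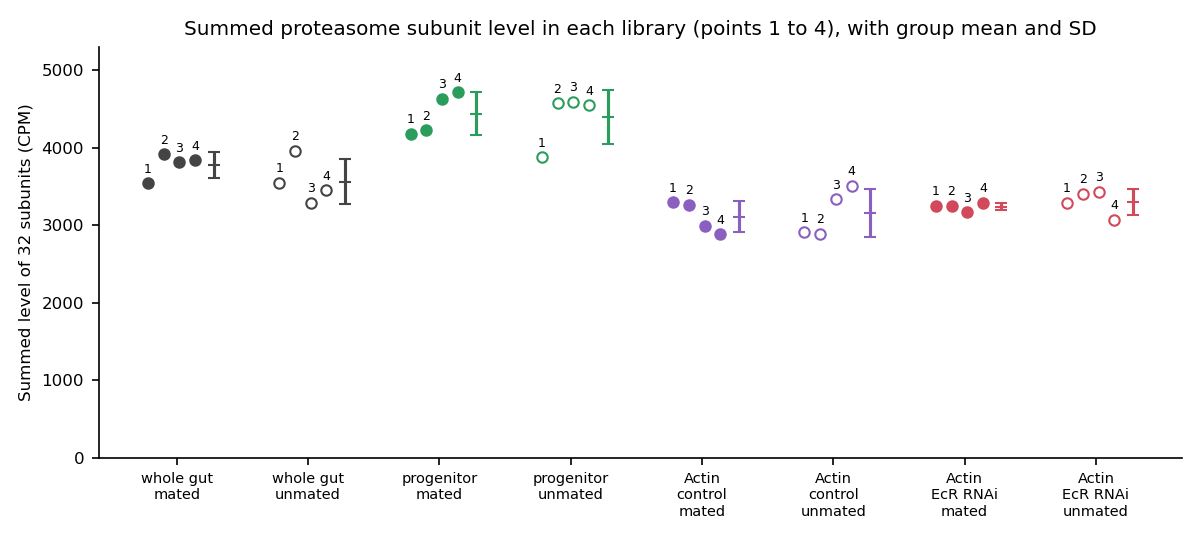
Summed CPM of the 32 standard subunits in each of the 32 libraries (points 1 to 4), with the group mean and SD (bar). Mated and unmated libraries overlap in every material, and unmated progenitor library 1, at 3879 CPM, lies below the other 3 at 4551 to 4594 CPM; heights cannot be compared between the whole gut, progenitor and Actin tables, which were scaled separately.

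No subunit passed the test for a mating difference in esg-Gal4 whole guts. EdgeR's quasi-likelihood test called 0 of 32 members (adjusted p under 0.05), where 4.26% of all 8833 genes tested were called, 2.23% higher and 2.03% lower. Prosalpha1 alone had an unadjusted p under 0.05 (1 member), and DESeq2 called 0. Of the 31 other subunits, 31 had a fold change above 0, with a median log2 of 0.08 against 0.02 for all genes, 54.0% of which lay above 0. Upper quartile scaling took this to 18 of 31, with a median of 0.02. The 95% intervals of these 31 together reached from 0.857-fold to 1.39-fold.

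The catalytic subunits overlapped between mated and unmated whole guts. Prosbeta5 had 136, 146, 139 and 154 CPM in mated libraries 1 to 4 and 129, 155, 114 and 123 CPM in unmated ones. Prosbeta1 had 92.1, 95.2, 92.6 and 97.9 CPM mated and 79.2, 101, 78.9 and 78.4 CPM unmated. Unmated library 2 was the highest library for both genes, and the other 3 unmated libraries lay below every mated one. Prosbeta2 had 114, 117, 115 and 117 CPM mated and 108, 124, 95.3 and 108 CPM unmated. By place in the particle, the median log2 difference was 0.15 for the alpha ring and 0.15 for the beta ring, against 0.03 for the base ATPases, 0.07 for the other base subunits and 0.05 for the lid. Rpn11, the deubiquitinase of the lid, differed by 0.0007 and its sign turned under other settings.

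Prosalpha1 was the 1 standard subunit of 32 whose mated and unmated whole gut libraries did not overlap, where 11.5% of all genes tested did not. It had 1.41, 0.876, 1.44 and 1.23 CPM mated and 0.734, 0.507, 0.647 and 0.845 CPM unmated. Its log2 difference was 0.84 (SE 0.29, edgeR adjusted p = 0.176), which did not pass the test. Its copy Prosalpha1R stood at 1.47 and 1.46 CPM in mated and unmated whole guts. Of 11 visceral muscle markers 8 were lower in mated guts, with a summed level of 1187 to 1584 CPM in mated and 2299 to 2473 CPM in unmated libraries, and of 6 enterocyte markers 2 were, with 22938 to 25742 against 34791 to 51743 CPM. Their part in the subunit values was not tested.

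In sorted progenitors the background was far larger, and no subunit passed either. EdgeR called 40.2% of 9025 genes between mated and unmated progenitors, 19.1% higher and 21.1% lower, and 0 of 33 members. At an unadjusted p under 0.05 it found 1, Rpn11, and DESeq2 called 0. Of the 31 subunits, 17 lay above and 14 below 0, with a median log2 of 0.02, the same as for all genes. Their 95% intervals reached from 0.797-fold to 1.35-fold.

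Prosbeta5 had 157, 155, 167 and 175 CPM in mated progenitors and 133, 162, 159 and 157 CPM in unmated ones. Prosbeta1 had 111, 113, 119 and 121 CPM mated and 108, 130.5, 121 and 131 CPM unmated. The groups overlapped for both genes, with log2 differences on either side of 0. Rpt2, the base ATPase that takes part in opening the gate, had 158, 155, 174 and 179 CPM mated and 135, 164, 166 and 157 CPM unmated. Rpn10, a ubiquitin receptor, had 117, 119, 134 and 138 CPM mated and 109, 128, 128 and 130.1 CPM unmated, again with overlap.

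Rpn11 came closest to the threshold. It had 135, 135, 148 and 149 CPM in mated progenitors and 105, 126, 136 and 121 CPM in unmated ones, so that 1 unmated library reached the mated range. Its log2 difference was 0.22 (SE 0.08, edgeR adjusted p = 0.0632). It passed without unmated library 3 (0.26, adjusted p = 0.0273) and with the replicate number as a block (adjusted p = 0.0361). Of 16 other settings 3 gave the call and 13 did not. Over these settings the difference ran from 0.11 to 0.45 and the adjusted p of edgeR or DESeq2 from 0.0154 to 0.323. Rpn6, a lid subunit, went the other way, with 154, 154, 171 and 174 CPM mated and 171, 181, 171 and 191 CPM unmated (log2 difference -0.13, adjusted p = 0.147). Prosalpha2 had 132, 135, 149 and 150.4 CPM mated and 141, 161, 159 and 161 CPM unmated (log2 difference -0.14, adjusted p = 0.14).

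**Figure D3:**
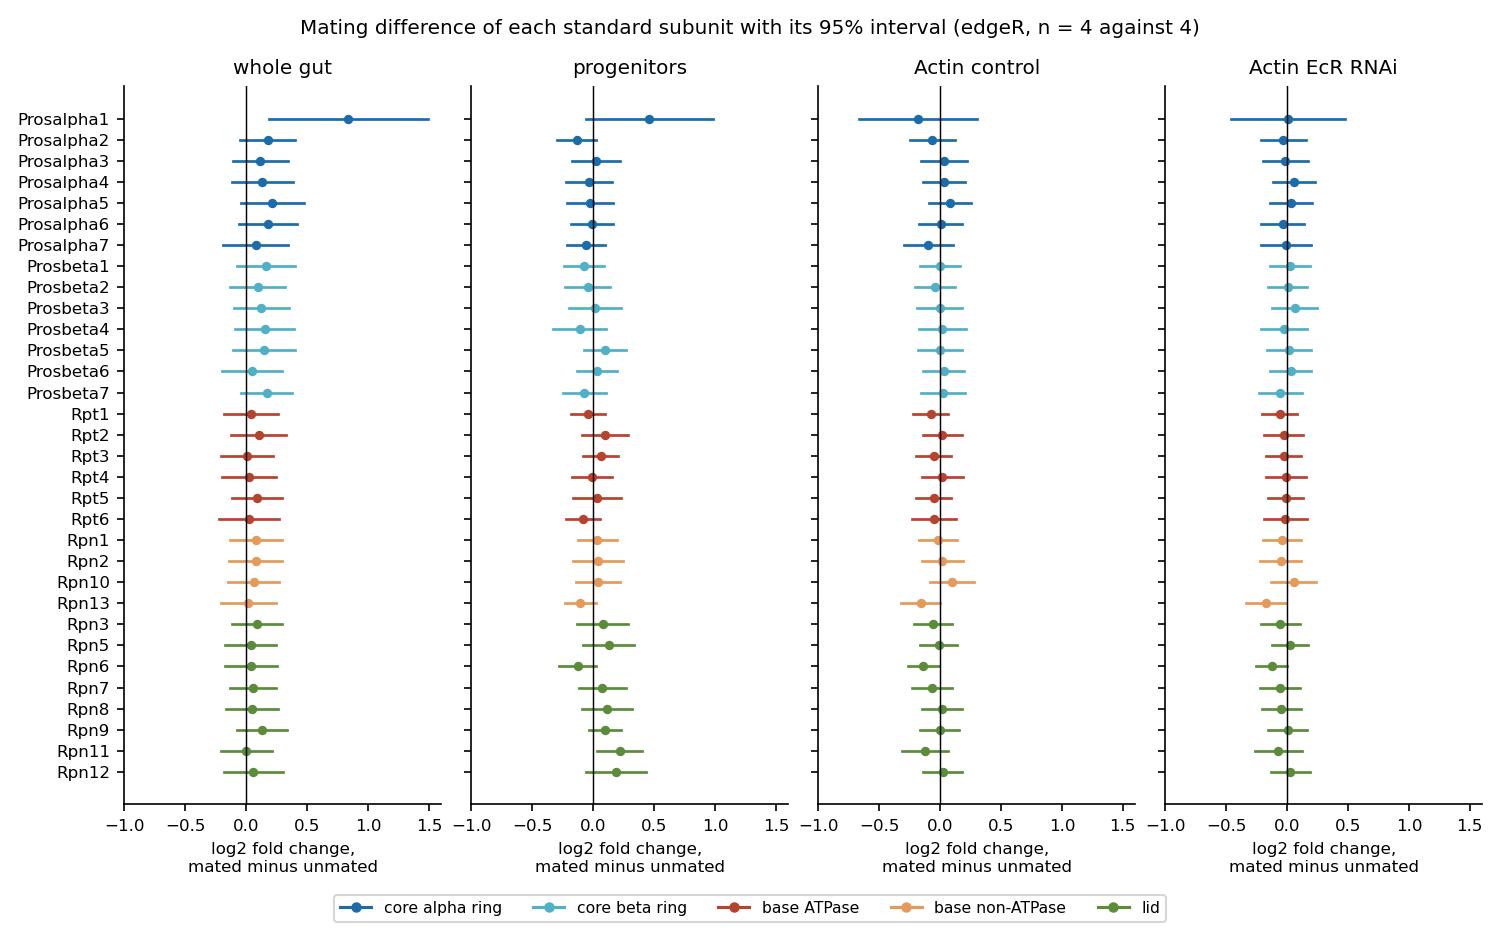
Log2 fold change, mated minus unmated, of each standard subunit (point) with its 95% interval (line) in whole guts, progenitors, Actin controls and libraries labelled EcR RNAi, from edgeR with 4 libraries against 4. No subunit was called at an adjusted p under 0.05 in any of the 4 panels. On library totals in place of TMM factors, 6 subunits in whole guts and 8 members in progenitors were called higher. Of all genes 9.27% and 41.9% were then called higher.

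These mating comparisons depend on what is held constant between libraries. TMM factors place the median of all genes at 0.02 in both materials, and dividing by library totals alone, a setting added after the data had been seen, moves it to 0.24 in whole guts and 0.26 in progenitors. The 31 subunits moved with it, to medians of 0.30 and 0.25, and 6 and 8 members were then called higher in whole guts and progenitors, where 9.27% and 41.9% of all genes were called higher. Relative to the median of all genes the subunits stayed at 0.06 in whole guts under both settings, and within 0.01 of 0 in progenitors. As a share of all gene counts the members took 0.370% to 0.436% in whole guts of mated flies against 0.300% to 0.353% without mating. The shares did not overlap there, and they did in progenitors, at 0.441% to 0.525% mated and 0.323% to 0.464% unmated. These shares are on the scale of library totals, where the median of all genes in whole guts was also above 0, at 0.24. How many of all genes do not overlap on that scale is not given here. With TMM factors the summed level in whole guts overlapped, at 3542 to 3918 CPM mated and 3289 to 3961 CPM unmated.

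Within the particle, alpha ring and lid genes parted in progenitors. The comparison was chosen after the values had been seen, and it is given as a description with no test. Of the 8 lid subunits 7 were above 0 in mated progenitors (median log2 0.10, Rpn6 the exception) and of 6 alpha subunits 1 was (median -0.03). The mean log2 CPM of the alpha ring minus that of the lid, which does not depend on scaling, was -0.06, -0.06, -0.05 and -0.06 in mated progenitor libraries 1 to 4 and 0.10, 0.08, 0.01 and 0.13 in unmated ones. The 2 groups did not overlap. In whole guts the values were -0.11 to -0.05 mated and -0.26 to -0.09 unmated, which overlapped and lay in the opposite order.

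The same unmated progenitor libraries carried high heat shock transcripts. The mean log2 CPM of the heat shock list was 10.3, 9.51, 8.35 and 9.96 in unmated progenitor libraries 1 to 4 and 6.42 to 7.23 in mated ones, and 15 of 15 listed genes tested were lower in mated progenitors (median log2 -2.83). Unmated library 3 had the lowest heat shock level of the 4 and the smallest distance between alpha ring and lid. Library 1 had the highest heat shock level, 10.3, while library 4 had the largest distance, 0.13. In mated progenitors, library 1 had the highest heat shock level, 7.23, and the lowest alpha ring minus lid value, -0.06. In whole guts heat shock levels were 2.42 to 3.92 mated and 3.66 to 5.42 unmated, with mean alpha ring minus lid values of -0.09 and -0.19. Some cell markers were also called for mating in these cells, where edgeR called 40.2% of all genes. The summed progenitor markers stood at 2024 to 2739 CPM in mated and 1586 to 1941 CPM in unmated libraries, with 3 of 6 called higher. Of 10 enteroendocrine markers 5 were lower in mated progenitors, with overlapping sums of 143 to 457 against 316 to 547 CPM, and of 6 enterocyte markers 2 were. Of 11 visceral muscle and 5 haemocyte markers tested, 0 were called. Of 4 ovary markers tested 1 was lower, and of 4 testis markers 2 were higher and 2 lower. The part of heat shock and of these markers in that distance was not tested.

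**Figure D4:**
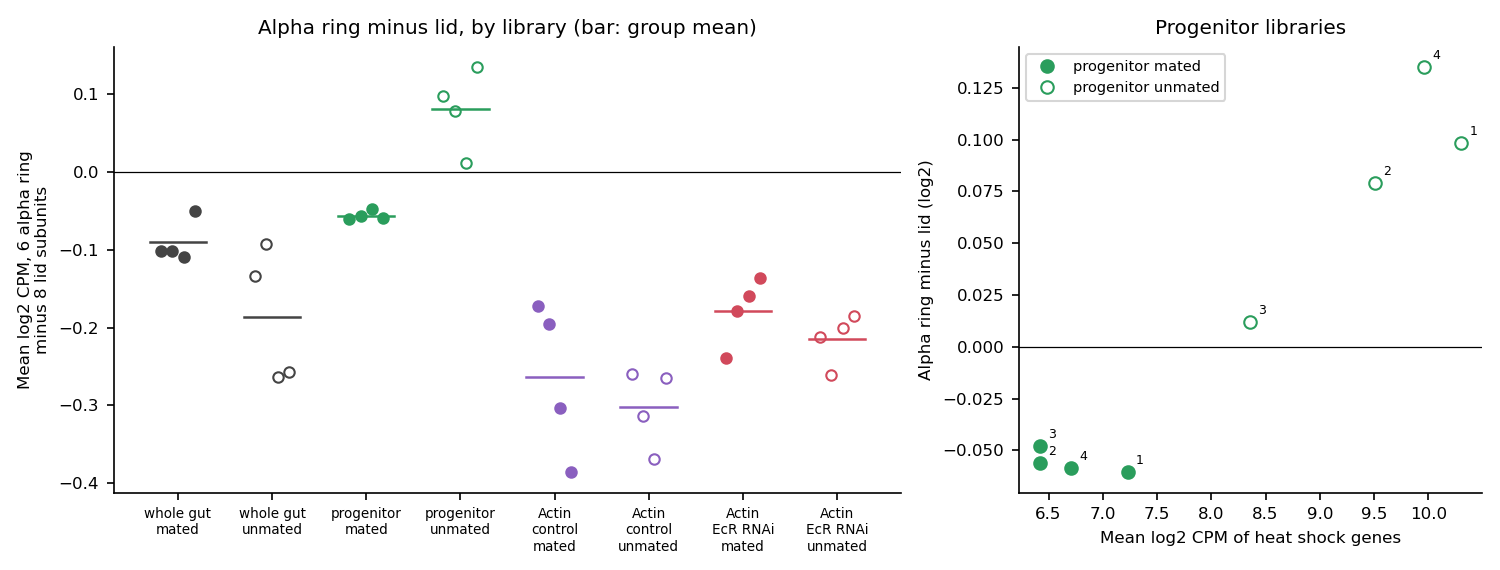
Left: mean log2 CPM of 6 alpha ring subunits minus that of 8 lid subunits in each library, with the group mean as a bar. Right: the same difference in the 8 progenitor libraries against the mean log2 CPM of heat shock genes, labelled by library; mated libraries lie between -0.06 and -0.05 and unmated ones between 0.01 and 0.13.

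The test of whether progenitors and whole guts differed in their mating response called 0 of 33 members, with 21.3% of 9448 genes called, 9.06% higher and 12.2% lower. An unadjusted p under 0.05 was found for 1, Prosalpha2, with a log2 difference of -0.28 between the responses (SE 0.12, edgeR adjusted p = 0.11). DESeq2 called 1, the same gene (-0.32, adjusted p = 0.0259). The intervals of the 31 subunits reached from 0.691-fold to 1.43-fold. All 6 alpha subunits lay below 0 in this comparison (median -0.14) and 7 of 8 lid subunits above it (median 0.08). These values come from the same libraries as the distance between alpha ring and lid.

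Genes that serve the proteasome were called in both directions in mated progenitors, where 40.2% of all genes were called, and nothing particular to these lists is read from their counts. Of 17 tested genes for ubiquitin and its handling, 1 rose and 8 fell. The polyubiquitin gene Ubi-p63E had 202 to 295 CPM mated and 246 to 659 CPM unmated (log2 difference -1.07, SE 0.28, edgeR adjusted p = 0.0196), and Ubi-p5E 182 to 275 against 252 to 676 CPM (-1.19, SE 0.31, adjusted p = 0.0192). In both genes 1 unmated library reached the mated range. Rad23, a shuttle that carries tagged proteins to the proteasome, fell from 160.2 to 200.3 CPM unmated to 128 to 145 CPM mated (-0.42, adjusted p = 0.00649), without overlap. On library totals the polyubiquitin genes were still called lower (-0.81 and -0.92), and Rad23 was not (-0.17, adjusted p = 0.0929).

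Of 14 tested assembly factors and regulators, 4 rose and 1 fell, below the 40.2% of all genes. Uch-L5, the deubiquitinase bound to Rpn13, rose by 0.27 (edgeR adjusted p = 0.0364), while its receptor Rpn13 had a log2 difference of -0.11 (adjusted p = 0.154). Of 12 tested genes of the transcription list, 1 rose and 5 fell. That list holds cnc, genes linked to its processing, and stress factors such as Hsf and foxo. It is not a set of transcription factors of proteasome genes alone. Cnc, the ortholog of the mammalian factors Nrf1 and Nrf2, had 279 to 311 CPM mated and 348 to 443 CPM unmated (-0.42, SE 0.08, adjusted p = 0.00738). Keap1, which holds cnc back, had 17.8 to 19.8 CPM mated and 30.2 to 51.2 CPM unmated (-1.11, adjusted p = 0.00266). Whether the calls of cnc and Keap1 hold on library totals is not given here. On that scale the median of all genes moves from 0.02 to 0.26, and Rad23, at -0.42 like cnc, lost its call. In whole guts edgeR called 0 genes of these 3 lists for mating, with 1 regulator, 2 ubiquitin genes and 1 gene of the transcription list at an unadjusted p under 0.05.

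Mating in the Actin controls called 0 of 32 members, with 6.87% of 9036 genes called, 2.95% higher and 3.92% lower. An unadjusted p under 0.05 was found for 1, Rpn6, and DESeq2 called 0. The median log2 of the 31 subunits was -0.00 (13 above 0), and their intervals reached from 0.799-fold to 1.21-fold. Rpn6 had 129, 125, 124 and 121 CPM in mated and 129, 129, 143 and 147 CPM in unmated controls (log2 difference -0.14, SE 0.06, edgeR adjusted p = 0.172). The values of Rpn10 were 115, 114, 102 and 95.5 CPM mated and 94.8, 88.6, 104 and 112 CPM unmated, the highest difference among the members (0.10), with overlap in both cases.

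Mating in the libraries labelled EcR RNAi called 0 of 32 members, with 10.8% of genes called, 5.37% higher and 5.41% lower. An unadjusted p under 0.05 was found for 1, Rpn13, and DESeq2 called 0. The median was -0.01 (11 of 31 above 0) and the intervals reached from 0.791-fold to 1.19-fold. Rpn13 had 103, 98.8, 97.2 and 103 CPM mated and 117, 118, 109 and 109.6 CPM unmated, without overlap (log2 difference -0.18, SE 0.08, edgeR adjusted p = 0.16). In the controls Rpn13 had 102, 102, 96.2 and 105 CPM mated and 101, 101, 123 and 129 CPM unmated (-0.16, adjusted p = 0.215), with overlap. Of 32 standard subunits, Rpn13 was the only one whose mated and unmated libraries did not overlap in this genotype, where 19.3% of all genes tested did not overlap.

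Set against the controls, the libraries labelled EcR RNAi had 0 of 32 members called in unmated guts, with 15.2% of 9036 genes called, 7.95% higher and 7.24% lower. An unadjusted p under 0.05 was found for 1, Prosbeta7, and DESeq2 called 1, the same gene (adjusted p = 0.0435). Prosbeta7, a structural beta ring subunit, had 114, 116, 126 and 107 CPM in the labelled libraries and 90.5, 91.1, 101 and 112 CPM in the controls. The log2 difference was 0.23 (SE 0.08, edgeR adjusted p = 0.0785) and 1 control library reached into the other group; without that library, control 4, edgeR called the gene (0.29, adjusted p = 0.038). The median of 31 subunits was 0.06 (28 above 0) against -0.01 for all genes, 49% of which lay above 0. Upper quartile scaling took this to 18 of 31, with a median of 0.03 against -0.04 for all genes. The 31 subunits move together between libraries, so their signs are not independent. With TMM factors the intervals reached from 0.847-fold to 1.33-fold. Of 11 visceral muscle markers 7 were lower in these labelled libraries, with sums of 1641 to 2301 CPM against 2449 to 3490 CPM in controls, and of 6 enterocyte markers 3 were, with sums of 31263 to 38007 against 33532 to 50404 CPM. Their part in the subunit values was not tested.

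In mated guts the same genotype comparison called 0 of 32 members, with 8.52% of genes called, 3.53% higher and 4.99% lower. An unadjusted p under 0.05 was found for 2, Prosbeta3 and Prosalpha1, and DESeq2 called 0. Prosbeta3, another structural beta subunit, had 68.9, 75.3, 68.2 and 74.0 CPM in the labelled libraries and 70.0, 64.7, 56.0 and 52.1 CPM in the controls (log2 difference 0.24, SE 0.09, edgeR adjusted p = 0.117). Without control library 1, the one that overlapped, edgeR called 1 member. Prosalpha1 had 0.909, 1.16, 1.27 and 1.25 CPM against 0.797, 0.729, 0.534 and 0.891 CPM (0.63, SE 0.22, edgeR adjusted p = 0.101). The nearest libraries of the groups stood at 0.909 and 0.891 CPM. Its counts per library were 22 to 29 in the labelled libraries and 13 to 25 in the controls. The median of the 31 was 0.05 (30 above 0), where 49.3% of all genes lay above 0. On library totals 19 of 31 lay above 0, with a median of 0.01 against -0.04 for all genes. With TMM factors the intervals reached from 0.879-fold to 1.34-fold. Visceral muscle markers were lower in 2 of 11 cases here and enterocyte markers in 1 of 6, and their part was likewise not tested.

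The interaction of genotype and mating called 0 of 32 members and 0% of 9036 genes. No member had an unadjusted p under 0.05, and DESeq2 called 0 members. The median of the 31 was 0.01, with intervals from 0.795-fold to 1.29-fold. The Actin comparisons share libraries: both genotype comparisons and both mating comparisons are made from the same 16, so their values are not independent of each other.

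Of the 14 assembly factors and regulators, edgeR called 0 in each of the 5 Actin comparisons, with 0 to 2 at an unadjusted p under 0.05. Of all genes, 0% (interaction) to 15.2% (genotype in unmated guts) were called, so few calls among 14 genes would be usual. The genes named next are some of the called members of the ubiquitin and transcription lists, and nothing particular to those lists is read from them. Hrd3 and sip3, which form a ubiquitin ligase of the endoplasmic reticulum, were higher in the libraries labelled EcR RNAi, by 0.31 and 0.33 in unmated and by 0.33 and 0.25 in mated guts (edgeR adjusted p from 0.00196 to 0.0143). On library totals both were still called in unmated guts and neither was in mated guts. Hrd3 shares exon sequence on opposite strands with Rpt5, whose own differences were not called. The fused ubiquitin genes RpL40 and RpS27A fell with mating in the controls, by 0.38 and 0.37 on the log2 scale (adjusted p = 0.0136 and 0.00896), and rngo, the ortholog of the protease that activates Nrf1 in mammals, fell by 0.22 (adjusted p = 0.0258), a call that was lost on library totals (adjusted p = 0.131).

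Sorted progenitors and whole guts could be compared only in a joint table of both, scaled together. There most subunits were lower in progenitors. Of 33 members 0 were higher and 22 lower in mated flies, where 82.9% of all genes were called, 43.2% higher and 39.7% lower. In unmated flies 1 was higher and 19 lower, where 81% were called, 42.2% higher and 38.8% lower. The median log2 difference of the 31 was -0.33 mated and -0.24 unmated against 0.10 and 0.09 for all genes. Dividing by library totals instead turned the direction: 12 members were higher and 0 lower in mated flies and 22 higher and 0 lower in unmated ones. Of all genes 55.7% were then higher and 30% lower in mated flies, and 56.3% and 27.8% in unmated ones, and their median moved to 0.63 and 0.65. Relative to that median the subunits lay 0.42 lower in mated flies under both settings, and 0.32 and 0.31 lower in unmated flies. The material, the sorting and the separate count tables that hold these libraries cannot be told apart in this comparison.

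Rpt6 and Rpn12 stood lowest. On the joint scale Rpt6 had 129, 129, 140.1 and 148 CPM in mated progenitors against 209, 223, 246 and 241 CPM in mated whole guts (log2 difference -0.75, SE 0.09, edgeR adjusted p = 1.05e-06), without overlap. Rpn12, a lid subunit, had 47.3, 61.7, 63.2 and 61.3 CPM in unmated progenitors against 99.7, 121, 98.7 and 100.4 CPM in unmated whole guts (-0.85, SE 0.11, adjusted p = 2.87e-06), also without overlap. Both remained below 0 on library totals, at -0.21 and -0.27, where they were not called.

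Catalytic subunits moved with the group. Prosbeta5 was lower by 0.34 on the log2 scale in progenitors of mated and of unmated flies, with 131, 128, 137.5 and 148 CPM in mated progenitors against 161, 176, 167.5 and 186 CPM in mated whole guts. Prosbeta1 was lower in mated flies (-0.23) and not called in unmated ones (-0.03). Prosbeta2 was lower in both (-0.34 and -0.24). All 3 signs turned on library totals, in mated and unmated flies to 0.20 and 0.24 for Prosbeta5, to 0.31 and 0.54 for Prosbeta1, and to 0.20 and 0.33 for Prosbeta2.

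Prosalpha6 was the member called higher, in unmated flies. It had 96.2, 110.2, 109 and 111 CPM in progenitors and 98.8, 100.2, 78.2 and 87.0 CPM in whole guts on the joint scale, with overlap (log2 difference 0.23, SE 0.09, edgeR adjusted p = 0.0343). DESeq2 did not call it (0.13, adjusted p = 0.197), and it was lost on leaving out any 1 of 5 libraries, unmated whole gut 3 and 4 and unmated progenitor 2, 3 and 4. Without unmated progenitor libraries 1 and 4, the pair with the highest heat shock transcripts, 2 members were higher and 10 lower in unmated flies. In that setting 7372 of 9484 genes were called in either direction. Of the 32 standard subunits, 21 had every mated progenitor library below every mated whole gut library, and 14 did so in unmated flies, on the joint scale, as did 37.4% and 36.1% of all 9448 genes tested.

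**Figure D5:**
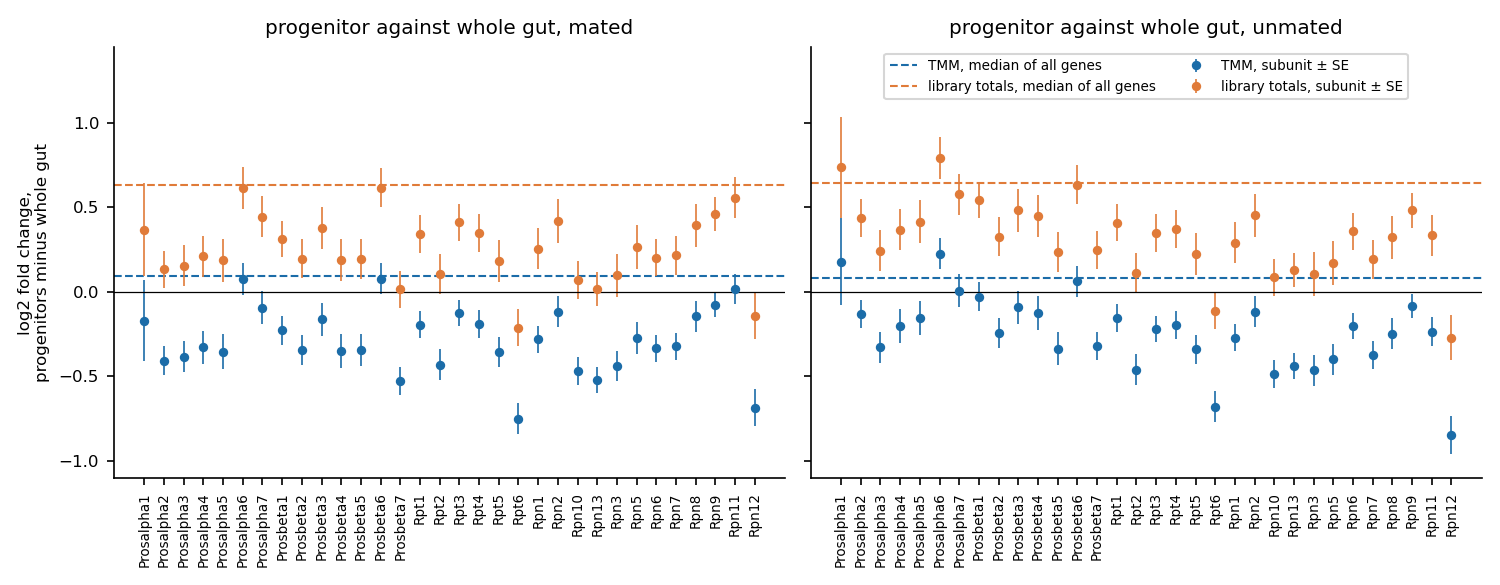
Log2 fold change of each standard subunit, progenitors minus whole guts, ± SE, with TMM factors (blue) and on library totals (orange), and the median of all genes under each setting (dashed lines). The direction turns with the setting, from a median of -0.33 to 0.21 in mated and from -0.24 to 0.34 in unmated flies, while under both settings all 32 subunits in mated and 30 in unmated flies lie below the dashed line of their own colour (the others are Prosalpha1 and Prosalpha6).

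Regulators of the proteasome and genes for ubiquitin handling differed between the same materials in both directions, as did 82.9% (mated) and 81% (unmated) of all genes. Of 14 tested assembly factors and regulators, 6 were higher and 5 lower in mated flies, and 5 higher and 4 lower in unmated ones. Of 17 ubiquitin genes, 6 were higher and 5 lower in mated flies, and 11 higher and 3 lower in unmated ones. Nothing particular to these lists is read from their counts. REG, the activator subunit of an alternative cap that opens the core without ubiquitin, was higher in progenitors by 1.34 in mated and 1.41 in unmated flies (edgeR adjusted p = 1.17e-09 and 7.78e-10). Uba1, the ubiquitin-activating enzyme, was higher by 1.07 and 1.13 (adjusted p = 1.79e-08 and 1.09e-08). Sem1, the small lid subunit, was lower by 0.53 and 0.65 on the log2 scale (adjusted p = 6.06e-05 and 8.49e-06), and PI31, a binding partner of the core, by 0.35 and 0.22 (adjusted p = 0.00106 and 0.0237). On library totals REG and Uba1 were still higher, Sem1 stood at 0.01 and -0.08, and PI31 turned to 0.19 and 0.34, called higher in unmated flies. Upper quartile scaling also ended the call of PI31 in unmated flies (-0.12, adjusted p = 0.256).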

How the data were processed

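The deposited tables hold whole-number counts per gene, which the authors made from poly(A) RNA sequenced with a directional kit, per the labels' protocols. The submitters' processing notes name STAR, HTSeq, DESeq2 and the builds BDGP6 and dm6. For tool versions, the strand setting and reads that match several genes, the answer is not given in the sources used here. Of 47 samples, 32 had a count column that was used. The Myo1A driver's 15 samples were left out, since the file named for them repeats the 8 whole gut columns with identical values, and 16 further columns were not used. Rows of transposable elements were left out.

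Counts were tested in R 4.3.3 with edgeR 4.0.16, with genes kept by filterByExpr (minimum count 10, minimum total 15), TMM scaling (trimmed mean of M values) and the robust quasi-likelihood F test. Whole guts and progenitors were each fitted alone, the 16 Actin libraries together, and whole guts and progenitors jointly for comparisons between them. Benjamini-Hochberg adjustment of p-values covered all genes of a fit, with calls made under 0.05. The SE was taken as the absolute log2 fold change over the root of F, and 95% intervals use the t distribution on the fit's total degrees of freedom. CPM values divide counts by the TMM-scaled library size of that fit, and mean log2 CPM values use a prior count of 2. Exon lengths and coordinates come from the BDGP6.54 annotation, matched by gene identifier. Known changes added to simulated counts were used to test the fits.

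The members, gene lists and tests were chosen with earlier results of these data known. Named with values in every library were the catalytic subunits, Rpn6, Rpn10, Rpn11, Rpn13, Rpt2, and per comparison the members called with the smallest adjusted p and those with the highest and lowest fold change; a selection is printed, and further members with an unadjusted p under 0.05 were named after their values had been seen. Libraries of a group differed by more than counting noise, with a chi-square per degree of freedom of at least 18.0, so each was counted as 1 replicate. Alternatives were DESeq2 1.42.0, its size factors in edgeR, no filter or a minimum count of 50, upper quartile scaling, a block for the replicate number, leaving out each library, and leaving out unmated progenitor libraries 1 and 4. The Actin comparisons were also fitted on only the groups compared. That fit for progenitors against whole guts, and scaling by library totals alone, were chosen once the data had been seen. Libraries with the same replicate number did not deviate together in every pair (correlations from -0.129 to 0.284), so the numbers were not taken to pair them. The median correlation was 0.115 in whole guts, 0.0675 in progenitors and 0.0724 in Actin guts. The block changed the calls over all genes. For mating they went from 376 to 262 in whole guts, 3627 to 3817 in progenitors, 621 to 903 in Actin controls and 974 to 1281 with EcR RNAi. For EcR RNAi they went from 1372 to 1590 in unmated and 770 to 889 in mated guts.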

Additional observations from a re-analysis of the deposited data

Results flagged for a closer look

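A library was singled out where its gap to the nearest other library of its group, divided by the range of the group, exceeded Dixon's 95% critical value for 4 samples. In independent groups chance gives about 1 in 20 such cases, and 9 were found in 112 groups tested. These groups are not independent. Subunits of a library move together, and the summed level and the alpha ring minus lid value are made from them. The 9 cases therefore cannot be set against that share.

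Unmated progenitor library 1 was low in 4 of them. The summed level of the standard subunits was 3879 CPM there against 4551 to 4594 in the other 3 libraries, Rpn12 stood at 56.5 CPM against 75.1 to 76.4, Rpn10 at 109 against 128 to 130.1, and Rpt6 at 165 against 175 to 177. The same library had the highest mean log2 CPM of heat shock genes of its group, 10.3, and the part of heat shock in these values was not tested.

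Unmated whole gut library 2 was high in 3. Prosbeta1 stood at 101 CPM against 78.4 to 79.2, Rpn12 at 100.3 against 80.4 to 83.3, and Rpn13 at 136 against 113 to 117. Its summed level of 3961 CPM was the highest of its group.

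In mated whole guts, Prosalpha6 stood at 76.1 CPM in library 1 against 86.5 to 88.4. The alpha ring minus lid difference was -0.0503 in mated whole gut library 4 against -0.109 to -0.101 in the others.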

How the results depend on the processing

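Of the settings tried for counts of members called, 326 results kept to within 1.5 times and 24 moved, where a count of 0 that stayed 0 was taken as kept. For progenitors against whole guts, the counts above 0 were 22 lower in mated flies, kept in 14 of 16 settings, and in unmated flies 19 lower, kept in 14 of 17, and 1 higher, kept in 8 of 17. Of single values, 657 were the same, 22 lost and 10 gained the call, 29 changed sign and 8 moved. Unless a value shows it, the cause was not tested. On library totals, members called higher were 6 in whole guts and 8 in progenitors for mating, and for progenitors against whole guts 12 higher and 0 lower in mated and 22 higher and 0 lower in unmated flies, with Prosbeta1, Prosbeta2 and Prosbeta5 at 0.31, 0.20 and 0.20 and at 0.54, 0.33 and 0.24. There Rpt3R turned to 0.0094 for mating in progenitors and Prosbeta3 to -0.04 for mating with EcR RNAi. Upper quartile scaling left 11 members lower in mated and 12 in unmated flies, with Prosbeta1 at 0.07 in unmated flies. Of all 9448 genes tested, 3488 were then lower in mated and 3469 in unmated flies. DESeq2 called 1 higher for EcR RNAi in unmated guts, 1 lower for the difference of mating responses and 0 higher for unmated progenitors against whole guts, and its size factors in edgeR gave 0 for the last. Rpn11 for mating in whole guts turned to -0.0162 with DESeq2, -0.0157 with its size factors, -0.064 with upper quartile scaling and -0.0013 with no filter. With the replicate number as a block, 1 member was higher for mating in progenitors, and no other count of members moved by over 1.5 times. Without unmated progenitor libraries 1 and 4, 2 were higher and 10 lower in unmated progenitors against whole guts, where 7372 of 9484 genes were called. Prosbeta1 then stood at 0.025, and at 0.0058 in a fit of the compared groups. Leaving out 1 library at a time, members higher ranged from 0 to 1 for mating in progenitors, for EcR RNAi in unmated and in mated guts, and for unmated progenitors against whole guts, and members lower from 0 to 2 for the difference of mating responses (2 without unmated whole gut library 2). The same ranges were -0.0592 to 0.0366 for Rpn11 in whole guts, -0.1047 to 0.0228 for Rpn11 with EcR RNAi in unmated guts, -0.0286 to 0.0083 for Rpn13 in mated guts, -0.518 to 0.0214 for Rpt3R in progenitors, and -0.0805 to 0.0376 for Prosbeta1 in unmated progenitors against whole guts. Calls over all genes, the background of these counts, moved as well on leaving out 1 library: from 376 to between 195 (without unmated library 3; 202 without mated 4 and 217 without unmated 4) and 510 for mating in whole guts, from 3627 to between 2248 (without unmated library 4) and 4304 in progenitors, from 621 to between 288 (without unmated library 2; 333 to 408 without mated 1, 2 or 3 or unmated 3) and 668 in Actin controls, from 974 to between 449 (without mated library 3 or unmated library 1; 507 to 642 without mated 1 or 4 or unmated 2 or 4) and 1067 with EcR RNAi, and from 770 to between 471 (without mated EcR RNAi library 4) and 639 for EcR RNAi in mated guts. Without unmated progenitor libraries 1 and 4, 1302 genes were called for mating in progenitors and 692 for the difference of mating responses, against 2008. At 7 to 18 counts of Prosalpha1 per library in unmated whole guts, and at most 47 of Rpt3R, their fold changes carry a wide counting error.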

Other observations

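Autophagy genes serve the other main route of protein breakdown. In progenitors edgeR called 6 of 20 tested genes of the list higher and 2 lower in mated cells, a share close to the 40.2% of all genes called, with a median log2 of 0.06. Atg7, the activating enzyme of the Atg8 conjugation pathway, stood at 17.6 to 19.2 CPM mated and 12.3 to 14.9 CPM unmated (log2 difference 0.46, SE 0.09, edgeR adjusted p = 0.00656). The receptor ref(2)P, the ortholog of mammalian p62, stood at 257 to 282 CPM mated and 407 to 697 CPM unmated (-1.05, SE 0.16, adjusted p = 0.0033). Neither gene's groups overlapped, and both calls held on library totals (0.69 and -0.79). In the Actin guts edgeR called 3 of 20 lower with mating in controls and 7 of 20 lower in libraries labelled EcR RNAi, where 3.92% and 5.41% of all genes were lower. Atg8a, the ubiquitin-like protein of the autophagosome membrane, differed by -0.49 (adjusted p = 0.0332) and -0.58 (adjusted p = 0.0114), and by -0.54 and -0.68 on library totals. In esg-Gal4 whole guts edgeR called 0 of 20 (4.26% of all genes were called), with 2 at an unadjusted p under 0.05.

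The spread of a subunit between libraries of a group differed between groups. The median SD of log2 CPM over 31 subunits was 0.0443 in mated libraries labelled EcR RNAi, against 0.106 over the 3291 genes of that table whose mean log2 CPM reached 5. It was 0.147 in unmated Actin controls, against 0.138 for those genes.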
